A study of Homo sapiens with 4 samples.

Results

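Transcripts of 48 genes of DNA replication were compared between control MCF10A.B2 cells and MCF10A.B2 cells expressing a short hairpin RNA (shRNA) against PAK1. The genes were taken as a named set covering origin licensing, helicase activation, the replicative polymerases, the sliding clamp and its loaders, single-stranded DNA binding and Okazaki fragment processing, fork protection and chromatin assembly. All 48 were found by name on the array and all 48 were tested, among 21990 genes tested in all. They were read by 60 of the 34127 probes.

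MCF10A is a non-tumorigenic human mammary epithelial line, and MCF10A.B2 carries a chimeric ErbB2 (Her2) receptor that the crosslinker AP1510 brings together and activates. PAK1 is a serine/threonine kinase downstream of the small GTPases Rac and Cdc42. The control group (n = 2 arrays) was labelled as Pak1 wild type and the PAK1 shRNA group (n = 2 arrays) as Pak1 deficient, the series text giving the shRNA as tetracycline-inducible. Every culture was grown in medium with 5% horse serum, starved of serum for 3 h and treated with AP1510 for 15 min, so all 4 arrays come from cells with the activated receptor. The labels do not say whether control cells were parental or uninduced, or whether the replicates of a group were separate cultures, so the p-values measure only the spread between these samples. Arrays of a non-targeting shRNA were not analysed here, and the effect of expressing a shRNA as such cannot be told apart from that of PAK1 loss. All 4 arrays lay on 1 slide with the groups in adjoining positions, and position cannot be told apart from group. Total RNA of whole cultures was measured, in which fewer cells in S phase and less RNA per cell cannot be told apart.

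Before S phase, the origin recognition complex, CDC6 and CDT1 load a ring of MCM2 to MCM7 onto DNA, a step called licensing, and geminin (GMNN) binds CDT1 to block a further round. In S phase the kinase CDC7 with its activator DBF4, together with other factors, recruits CDC45 and the GINS complex to the loaded ring, which completes the replicative helicase. Polymerase alpha with primase then lays primers, polymerases epsilon and delta extend them on PCNA clamps loaded by replication factor C, and chromatin assembly factors package the new DNA. Many of these genes are known targets of E2F transcription factors and are transcribed in cells that enter the cell cycle.

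E2F-type motifs were searched in the promoters, for which 41 of the 48 genes had an entry in the RefSeq table (GRCh38.p14). An E2F-type motif, spelled TTTCCCGC, TTTCGCGC, TTTGCCGC or TTTGGCGC on either strand, lay between 250 bases before and 50 bases after a listed start in 21 of these 41 genes (51.2%). The same search found it in 1090 of 27305 genes of the table (3.99%) and in 677 of the 11458 genes with an entry that were also tested on the arrays (5.91%). The licensing genes held it in 7 of 7, the helicase activation genes in 5 of 8, the polymerase genes in 4 of 9, the clamp and loader genes in 2 of 7, and the remaining 3 groups in 1 gene each. CCAAT, the box that NF-Y proteins bind, was found in 24 of 41 (58.5%), against 39.7% of all genes of the table and 42.4% of those also tested on the arrays. Stretches of 180 bases before to 10 after the start are shown for a gene in each of the licensing, polymerase, clamp and chromatin groups. Each had the largest fall among the genes that held the E2F-type motif, so motif and fall were both part of the choice. Larger falls without the motif in a listed promoter were those of PRIM1 (-2.96) among the polymerase genes. In the clamp group they were those of RFC5 (-3.19), CHTF18 (-2.65) and RFC4 (-2.51). Capitals mark the matches, and the sequences are GRCh38.p14 on the strand of the gene: MCM6 at chr2:135876434-135876623 (minus strand), POLE2 at chr14:49688205-49688394 (minus), RFC3 at chr13:33817969-33818158 (plus) and UHRF1 at chr19:4909321-4909510 (plus).
MCM6: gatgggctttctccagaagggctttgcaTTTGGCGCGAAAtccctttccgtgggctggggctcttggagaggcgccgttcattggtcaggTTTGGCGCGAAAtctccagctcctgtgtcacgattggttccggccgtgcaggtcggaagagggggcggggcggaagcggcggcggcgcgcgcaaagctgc
POLE2: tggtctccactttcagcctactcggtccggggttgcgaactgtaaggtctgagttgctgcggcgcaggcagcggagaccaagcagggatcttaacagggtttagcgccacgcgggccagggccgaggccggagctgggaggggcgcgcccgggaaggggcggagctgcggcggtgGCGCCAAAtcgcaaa
RFC3: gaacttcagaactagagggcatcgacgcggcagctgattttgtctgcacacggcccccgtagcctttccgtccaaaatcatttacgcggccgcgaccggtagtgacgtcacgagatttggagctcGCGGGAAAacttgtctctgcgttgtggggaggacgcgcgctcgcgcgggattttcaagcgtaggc
UHRF1: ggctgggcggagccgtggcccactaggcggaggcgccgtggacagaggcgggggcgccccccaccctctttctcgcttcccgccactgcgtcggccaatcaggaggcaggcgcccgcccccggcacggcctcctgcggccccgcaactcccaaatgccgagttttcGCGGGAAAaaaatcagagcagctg
In MCM6 each capital stretch holds overlapping matches on both strands, the first bases of the matches lying 152, 148, 90 and 86 bases before the start. The first base of the single match lay 5 bases before the start in POLE2, 55 in RFC3 and 14 in UHRF1. The POLE2 match therefore runs across the start. A match describes the letters in the window and is not evidence of binding.

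PAK1 itself, the target of the shRNA, was measured first. Both control samples, at normalized log2 intensities of 11.19 and 11.27, were brighter than the PAK1 shRNA samples at 10.44 and 10.51. The groups did not overlap, and PAK1 fell by 0.76 on the log2 scale (SE 0.08, limma adjusted p = 0.00018) to 59.2% of control. The probe lies on chromosome 11 at 77034135 to 77034194 (hg19).

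Transcripts of the replication set were lower in PAK1 shRNA cells almost throughout. Of the 48 genes, 46 fell (limma, Benjamini-Hochberg adjusted p under 0.05 over all genes tested), 0 rose, and RFC1 and PRIM2 did not pass. The background was wide, since 32.0% of all genes tested fell and 30.6% rose at this threshold. By size, 45 of the 48 fell at least 2-fold, against 9.09% of all genes, and 29 fell at least 4-fold, against 1.98%. These counts by size depended on the processing. With the background correction (normexp) fitted on all spots, POLA2 (-0.84) and TIPIN (-0.97) were short of 2-fold. In that setting CDC7, MCM10, POLA1, POLD2, POLE2, RFC3, DSCC1 and WDHD1 were short of 4-fold. As a mean over probes, DBF4 (-0.84) and RPA1 (-0.79) were short of 2-fold. With cyclic loess scaling, RPA1 (-0.95) and TIPIN (-0.96) were short of 2-fold. Both PAK1 shRNA arrays lay below both control arrays, or below the control array that had a value, in 47 of the 48, against 40.1% of all genes tested. The median log2 fold change of the set was -2.27, equal to 20.7% of control, beside a median of 0.02 over all genes, of which the 5th and 95th percentiles were -1.36 and 1.45. Single genes of the set ran from -3.86 (GINS2) to 0.01 (RFC1).

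**Figure D1:**
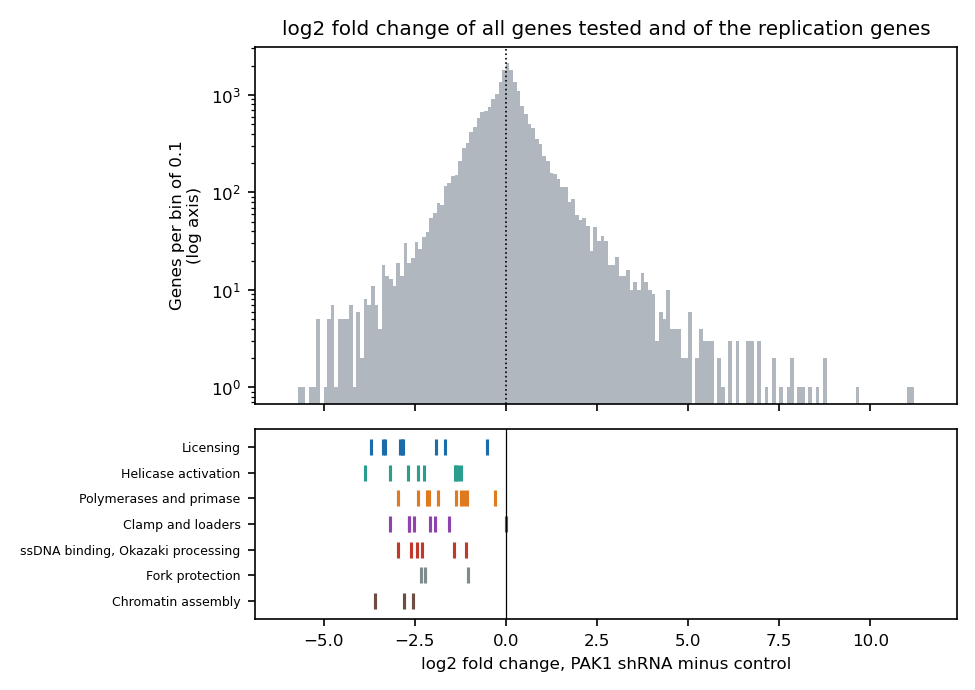
Log2 fold changes (PAK1 shRNA minus control, horizontal axis) of the 21990 genes tested, as a histogram with a log count axis, and of the 48 replication genes, as 1 tick a gene in a row for each role. All genes centre on 0.02 and the replication genes on -2.27.

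Replicate arrays lay close together in this set. The SD of the 2 values of a gene had a median of 0.09 in control and 0.06 in PAK1 shRNA cells on the log2 scale, and reached at most 0.21 (FEN1) and 0.24 (MCM10). Standard errors of the fold changes, which limma moderates over all genes, were 0.07 to 0.13. In 40 of the 48 genes the whole 95% interval lay below -1, and in 26 it lay below -2. Every member's probe was well above background on all 4 arrays and none was saturated. An exact permutation test of any 1 gene over 2 against 2 arrays cannot go below p = 0.333, so the calls rest on the spread that limma shares across genes.

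**Figure D2:**
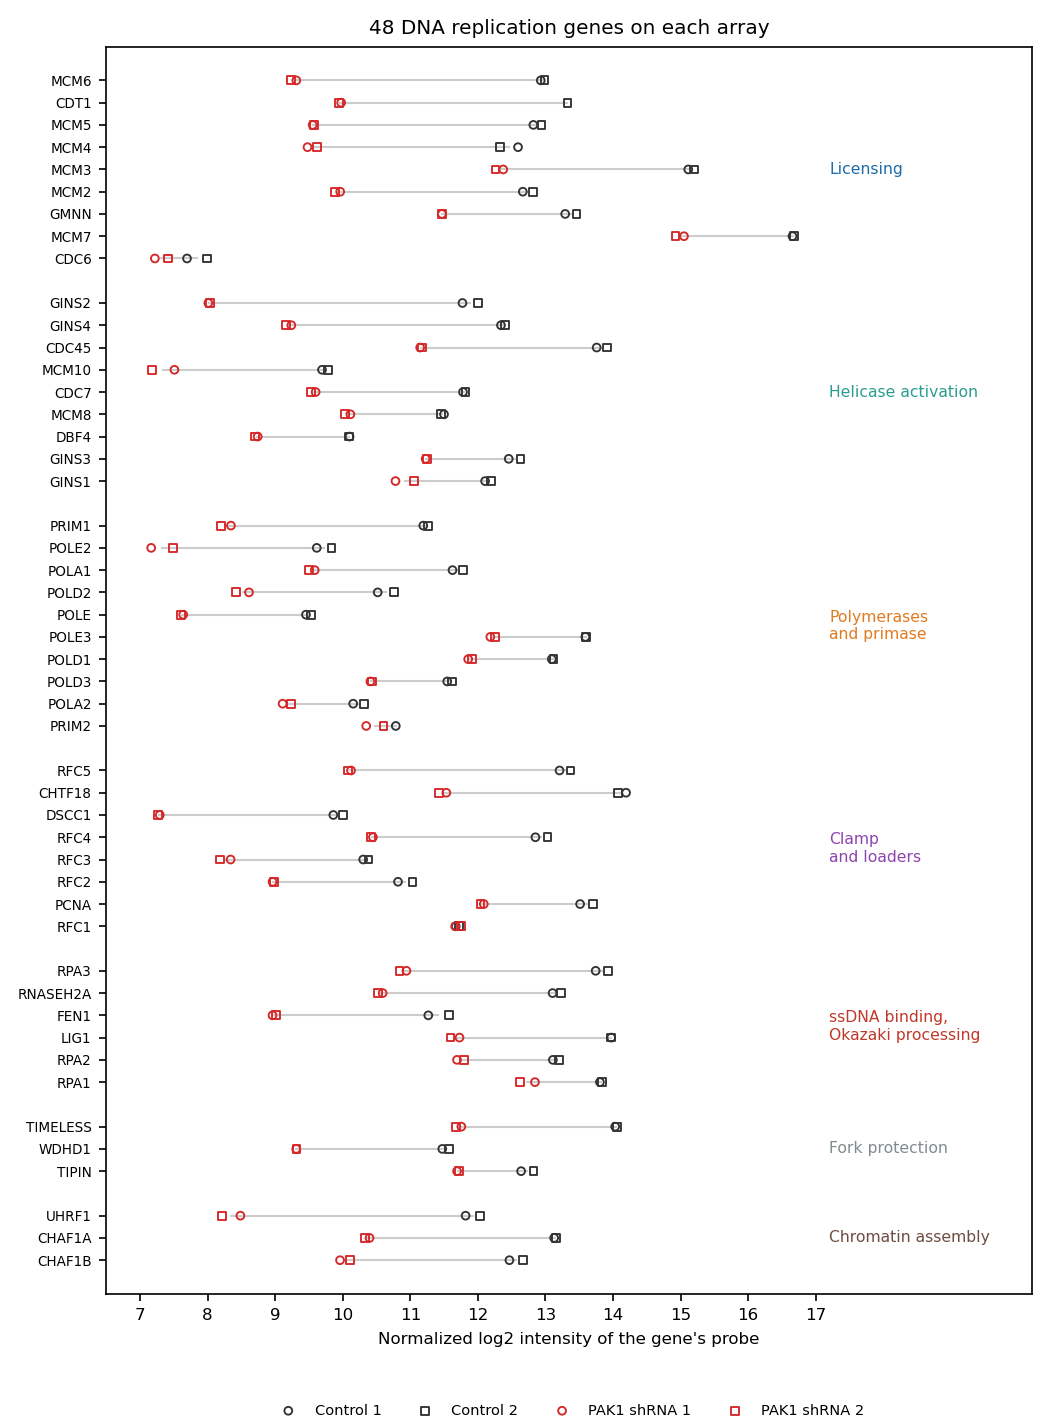
Normalized log2 intensity of each replication gene on the 4 arrays, grouped by role, with circles and squares for the replicates and a line joining the group means. Black control symbols lie to the right of red PAK1 shRNA symbols in every gene but RFC1. CDT1 and PRIM2 have a value on 1 control array only.

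All 9 licensing genes fell, 8 of them at least 2-fold and 6 at least 4-fold, with a median of -2.84. MCM6, a subunit of the ring, read 12.93 and 12.98 in control cells and 9.31 and 9.23 in PAK1 shRNA cells, a change of -3.69 (SE 0.08, limma adjusted p = 4.7e-07, 7.76% of control). Its probe lies on chromosome 2 at 136598217 to 136598276 (hg19), and its promoter is the one shown above with 4 matches. MCM5 read 12.82 and 12.94 in control cells and 9.55 and 9.57 in PAK1 shRNA cells, a change of -3.32 (9.98-fold lower). Its probe on chromosome 22 spans 35819307 to 35820178 (hg19), longer than the probe itself, as for a sequence that crosses a splice junction.

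The other ring subunits followed. MCM4 went from 12.59 and 12.33 to 9.48 and 9.62, a change of -2.91 (13.3% of control). MCM3 went from 15.11 and 15.20 to 12.37 and 12.26, a change of -2.84 (7.15-fold lower). MCM2 went from 12.66 and 12.82 to 9.96 and 9.89, a change of -2.82 (14.2% of control), and the intervals of these 3 subunits overlapped. MCM7 moved least of the ring, from 16.66 and 16.67 to 15.05 and 14.92, a change of -1.68 (31.3%), and its 95% interval of -1.87 to -1.49 did not meet that of any other ring subunit. Taken within each array, MCM6 less MCM7 changed by -2.01 between the groups. MCM7 had a further probe, which read -2.09, so the gap to the other subunits was smaller there.

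Loading factors split. CDT1, which brings the ring to the origin complex, read 13.32 on the second control array and 9.98 and 9.94 in PAK1 shRNA cells. The spot of the first control array had a flagged local background and was left out, so the change of -3.37 (SE 0.09, limma adjusted p = 4.0e-06, 9.70% of control) rests on 1 control value, and with flagged spots kept it was -3.21. Geminin, the inhibitor of CDT1, fell less, from 13.29 and 13.46 to 11.47 and 11.46, a change of -1.91 (26.6%). CDC6, the ATPase that acts with CDT1, fell least of the licensing genes. It read 7.69 and 7.99 in control cells and 7.22 and 7.41 in PAK1 shRNA cells, a change of -0.53 (95% interval -0.81 to -0.24, limma adjusted p = 0.0081, 69.5% of control). CDC6 was dim, the lowest signal well above background being 6.12 to 6.21 on the 4 arrays, and it did not pass when the spread was taken from each gene alone (adjusted p = 0.15).

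**Figure D3:**
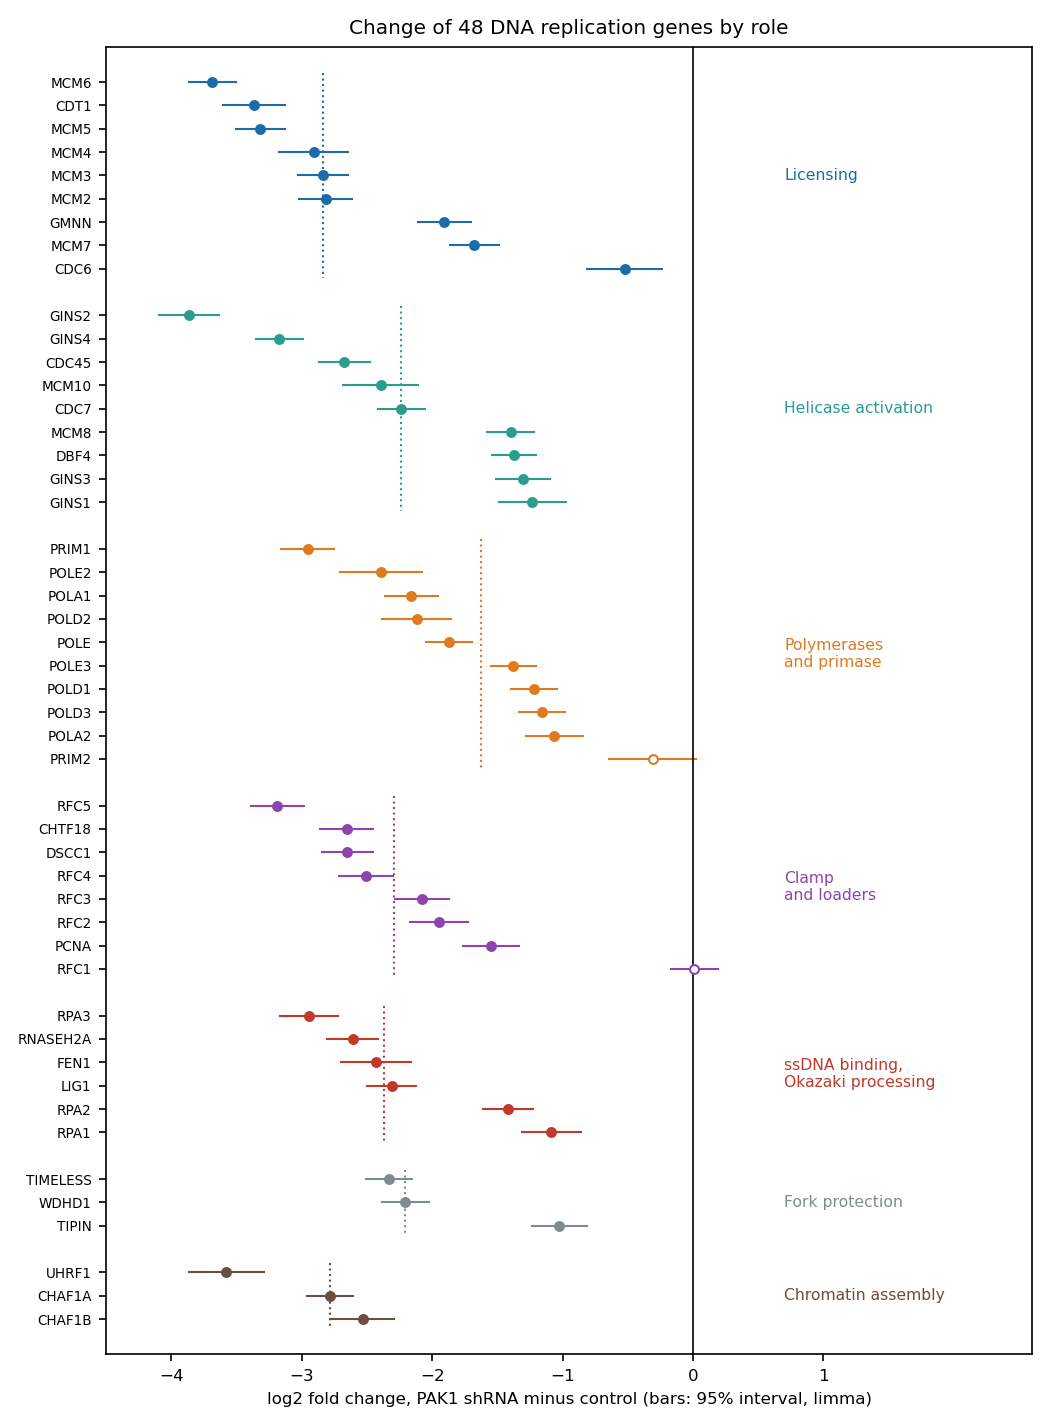
Log2 fold change (PAK1 shRNA minus control) of each replication gene with its 95% interval from limma, grouped by role. GINS2, MCM6 and UHRF1 lie farthest left, and the intervals of RFC1 and PRIM2 include 0.

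All 9 genes of helicase activation fell at least 2-fold and 5 fell at least 4-fold, with a median of -2.24. GINS2, a subunit of the GINS complex, had the largest fall of the set as processed here. It read 11.77 and 12.01 in control cells and 8.01 and 8.04 in PAK1 shRNA cells, a change of -3.86 (SE 0.10, limma adjusted p = 8.0e-07, 6.87% of control). Each of these values is a mean over 10 spots of the same probe, on chromosome 16 at 85711654 to 85711713 (hg19), with a spot SD within an array of 0.14 to 0.18. With normexp fitted on all spots GINS2 changed by -3.09 and MCM6, at -3.26, fell most. The GINS complex was uneven, GINS4 changing by -3.17, GINS3 by -1.31 and GINS1 by -1.23. GINS1 went from 12.11 and 12.19 to 10.78 and 11.05, 42.5% of control, and the intervals of GINS1 and GINS3 lay apart from those of GINS2 and GINS4. CDC45, the helicase partner of GINS, changed by -2.67 and MCM10, which helps to start the assembled helicase, by -2.40. The size for MCM10 depended on the background correction, at -1.61 with normexp fitted on all spots and -3.16 from the processed signal. CDC7, the kinase that triggers firing, changed by -2.24 and its activator DBF4 by -1.37. As a mean over its probes DBF4 read -0.84, short of 2-fold. MCM8, a relative of the ring subunits that was placed in this group although it works in homologous recombination, changed by -1.40.

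Among the polymerases and primase, 9 of 10 genes fell, all 9 at least 2-fold and 4 at least 4-fold, and the median of -1.62 was the smallest of the 7 groups. With normexp fitted on all spots POLA2 (-0.84) was short of 2-fold, and POLA1 (-1.86), POLD2 (-1.64) and POLE2 (-1.60) were short of 4-fold. The primase subunits differed widely. PRIM1, the catalytic subunit that makes the RNA primer, went from 11.19 and 11.26 to 8.35 and 8.20, a change of -2.96 (SE 0.08, limma adjusted p = 1.2e-06, 12.9% of control), or -2.32 with normexp fitted on all spots. PRIM2, the larger subunit, read 10.78 on the first control array and 10.35 and 10.60 in PAK1 shRNA cells, the spot of the second control array being left out for its flag. Its change was -0.31 (95% interval -0.64 to 0.02, limma adjusted p = 0.094), which did not pass. The intervals of the subunits lay far apart, and PRIM1 less PRIM2 within an array changed by -2.61, from the first control array to the mean of the PAK1 shRNA arrays. In a separate limma fit over probes in place of genes, the further probes of PRIM2 read -0.52 (adjusted p = 0.00075) and -0.38 (adjusted p = 0.0092). The used probe had an adjusted p of 0.086 in that limma fit. With flagged spots kept the used probe read -0.38 (limma adjusted p = 0.021) in the fit over genes. The missing call therefore depended on the probe and on 1 control value.

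The polymerases proper fell by intermediate amounts. POLA1, the catalytic subunit of polymerase alpha, changed by -2.16 and its partner POLA2 by -1.06. In polymerase epsilon, the leading strand enzyme, the catalytic subunit POLE changed by -1.87, the subunit POLE2 by -2.40 and the histone-fold subunit POLE3 by -1.38. With normexp fitted on all spots POLE read -1.25, POLE2 -1.60 and POLE3 -1.33, so the order of POLE and POLE3 turned, and POLE2 read -3.06 from the processed signal. POLE2 is the gene whose promoter is shown above with a match close to the start. In polymerase delta, the lagging strand enzyme, the catalytic subunit POLD1 changed by -1.22, POLD2 by -2.12 and POLD3 by -1.16. POLD2 was apart from POLD1 and POLD3, whose intervals overlapped each other.

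PCNA, the sliding clamp, went from 13.51 and 13.71 in control cells to 12.09 and 12.04 in PAK1 shRNA cells, a change of -1.55 (SE 0.09, limma adjusted p = 1.7e-05, 34.2% of control), each value a mean over up to 10 spots. As processed here the small loader subunits had larger changes than the clamp, but the intervals of RFC2 (-2.17 to -1.73) and PCNA (-1.76 to -1.33) overlapped. With normexp fitted on all spots RFC2 (-1.58) and RFC3 (-1.55) lay close to PCNA (-1.49). RFC5 went from 13.21 and 13.37 to 10.12 and 10.08, a change of -3.19 (9.12-fold lower). RFC4 changed by -2.51, RFC3 by -2.08 and RFC2 by -1.95. RFC1, the large subunit of the canonical loader, did not pass. It read 11.67 and 11.72 in control cells and 11.66 and 11.75 in PAK1 shRNA cells, and the groups overlapped. Its change was 0.01 (95% interval -0.17 to 0.19, limma adjusted p = 0.92), an interval that leaves out a fall as large as that of any other loader gene. Its probe lies on chromosome 4 at 39290075 to 39290134 (hg19).

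Measured within each array, RFC2, RFC3, RFC4 and RFC5 less RFC1 changed by -1.96, -2.09, -2.52 and -3.20 between the groups, so the small subunits that several loaders share fell relative to the large subunit of the canonical one. CHTF18, the large subunit of the alternative loader that acts in sister chromatid cohesion, did not behave like RFC1. It changed by -2.65, and by -2.72 to -2.55 over the alternatives. DSCC1, another subunit of that loader, also changed by -2.65, but read -1.80 with normexp fitted on all spots and -3.28 from the processed signal. The group as a whole had 7 of 8 genes lower, 7 at least 2-fold and 5 at least 4-fold, with a median of -2.29.

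Single-stranded DNA binding and Okazaki fragment processing included 6 genes, of which all 6 fell at least 2-fold and 4 at least 4-fold (median -2.37). The subunits of replication protein A, which coats single-stranded DNA, were uneven. RPA3, the small subunit, went from 13.74 and 13.93 to 10.94 and 10.84, a change of -2.95 (13.0% of control). RPA1, the large subunit, went from 13.81 and 13.83 to 12.84 and 12.62, a change of -1.09 (47.1%), and RPA2 changed by -1.42. As a mean over its probes RPA1 read -0.79, short of 2-fold. FEN1, the flap nuclease, changed by -2.43, the ligase LIG1 by -2.31 and RNASEH2A, the catalytic subunit of the enzyme that removes RNA from DNA, by -2.61. These 3 intervals overlapped each other.

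All 3 genes of fork protection fell. TIMELESS went from 14.03 and 14.06 to 11.75 and 11.67, a change of -2.33 (19.9% of control). TIPIN, its binding partner, went from 12.64 and 12.82 to 11.69 and 11.72, a change of -1.03 (49.1%), and the intervals of the partners lay apart. WDHD1, which links the helicase to polymerase alpha, changed by -2.21.

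Genes of chromatin assembly fell as a group by a median of -2.78, and all 3 fell at least 4-fold. UHRF1, which reads hemimethylated DNA and brings the maintenance methyltransferase, went from 11.82 and 12.03 to 8.49 and 8.21, a change of -3.58 (SE 0.12, limma adjusted p = 2.1e-06, 8.37% of control), or -2.92 with normexp fitted on all spots and -2.99 as a mean over its probes. Its probe lies on chromosome 19 at 4962065 to 4962124 (hg19), and its promoter is shown above. CHAF1B, a subunit of chromatin assembly factor CAF-1, went from 12.47 and 12.67 to 9.96 and 10.11, a change of -2.53 (17.3%). CHAF1A, the large subunit, changed by -2.78, and the intervals of the CAF-1 subunits overlapped.

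Falls were seen in genes with and without the E2F-type motif, and a difference between them was not tested. The 21 genes that held it all fell, with a median of -2.08, and 11 fell at least 4-fold. Of the 20 genes with a listed promoter and no such motif, 18 fell, with a median of -2.36, and 13 fell at least 4-fold. GINS2 and MCM6 were among the genes with the motif, and so was CDC6, the smallest fall among the genes that passed. RFC1 and PRIM2 both had a listed promoter without the motif.

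A further check came from genes with over 1 probe. For 37 genes the array had 1 probe and for 11 it had more, giving 12 further probes. All 12 changed in the direction of the probe used. In a limma fit over probes in place of genes, 11 of them passed the threshold. The exception was the further probe of DBF4 (-0.32, limma adjusted p = 0.080), which was well above background on 3 arrays only. Sizes were less stable than directions, the median difference between probes being 0.24 and the largest 1.18. That largest gap was in UHRF1, whose further probe read -2.39. On further probes DBF4 read -0.32 in place of -1.37, CHAF1A -2.17 in place of -2.78 and RPA1 -0.50 in place of -1.09. RFC3 read -2.35 in place of -2.08, whereas MCM5 at -3.19 and PCNA at -1.66 were close to the probes used. Sizes compared between genes therefore carry a difference between probes as well as the spread between arrays.

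**Figure D4:**
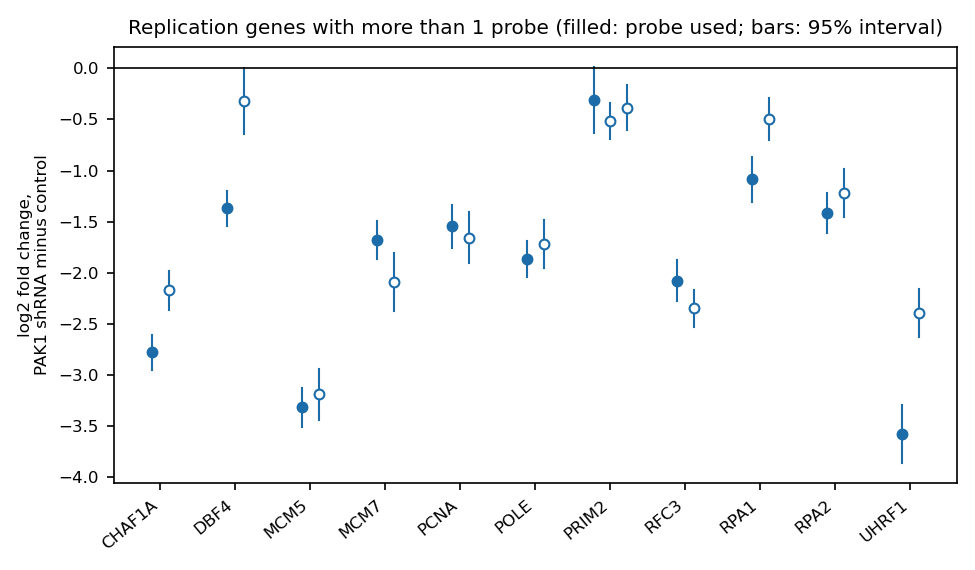
Log2 fold change of each probe of the 11 replication genes with over 1 probe, filled circles for the probe used, open circles for further probes and bars for the 95% interval. Every circle lies below 0, and the widest gap is that of UHRF1.

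The wider replication machinery moved less evenly. Of 31 other replication genes, 25 fell, 3 rose and 3 did not pass, with a median of -1.35. Over all genes tested 32.0% fell and 30.6% rose. By size, 19 of the 31 fell at least 2-fold, against 9.09% of all genes, and 6 at least 4-fold, against 1.98%. The largest changes were those of TOP2A (-4.84), the topoisomerase that untangles sister chromatids, RECQL4 (-3.23), a helicase of replication initiation, ASF1B (-2.91), a histone chaperone, TICRR (-2.32), which helps to bring CDC45 to origins, and ATAD5 (-2.12), which unloads PCNA. TOP2A went from 13.15 and 13.22 to 8.47 and 8.23. With normexp fitted on all spots TOP2A read -4.12, ATAD5 -1.38 and ORC1 -1.25. Origin recognition complex genes, whose products the loading step of the ring needs, went both ways: ORC1 changed by -1.91, ORC3 by -1.57, ORC6 by -1.51 and ORC5 by -0.50, while ORC4 rose by 0.79 and ORC2 was at -0.01 (limma adjusted p = 0.87). POLD4, the smallest subunit of polymerase delta, rose by 1.40, from 14.03 and 13.93 to 15.37 and 15.37, against the falls of the other polymerase delta genes. TOP1, which relaxes DNA ahead of the fork, rose by 0.51. RNASEH2C was at -0.27 (adjusted p = 0.054), while its partners RNASEH2A and RNASEH2B changed by -2.61 and -1.82. ASF1A was at -0.10 (adjusted p = 0.34), while ASF1B fell, and their intervals lay apart.

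Cell identity was checked on marker lists. Array values and sums of the markers keep flagged spots, so that every array has a value, while their fold changes leave flagged spots out. A sum here is the log2 of the summed linear intensities of a list, so the brightest markers weigh most. Of all genes tested, 32.0% fell and 30.6% rose at the threshold used. All 8 basal epithelial markers were well above background on all 4 arrays. Their sum was 18.98 and 18.82 in control and 19.11 and 19.17 in PAK1 shRNA cells. Even so, 5 of the 8 fell (log2 fold changes of -1.20 for KRT5, -1.13 for TP63, -0.98 for KRT14, -0.75 for KRT17 and -0.56 for EGFR). LAMB3 alone rose, by 1.19, and ITGB4 (0.06) and ITGA6 (-0.09) did not pass. The luminal list (6 of 7 above background on all arrays, PGR on none) summed to 17.49 and 17.45 in control and 18.32 and 18.37 in PAK1 shRNA cells. Its genes went both ways, XBP1 rising by 2.54, FOXA1 by 1.48 and KRT18 by 0.47 while GATA3 fell by 0.49, and KRT8 (-0.12) and ESR1 (0.13) did not pass. Fibroblast markers were at background for COL1A2, COL3A1 and PDGFRA on all arrays, and the list (3 of 7 above background on all arrays) summed to 12.26 and 12.02 against 13.00 and 12.97. DCN, the brightest of them, rose from 11.98 and 11.73 to 12.76 and 12.70, COL1A1 rose by 0.87 and LUM by 1.79, while PDGFRB, above background on 3 arrays, fell by 0.58. Blood markers (4 of 5) summed to 14.26 and 14.19 against 15.47 and 15.58, a sum led by CD14, while PTPRC changed by 0.12 (limma adjusted p = 0.23). Endothelial markers (4 of 4) summed to 10.04 and 10.09 against 9.78 and 9.75. PECAM1 fell by 1.56 and VWF rose by 0.37, while CDH5 (0.15) and KDR (0.14) did not pass. The part of these shifts in the falls of the replication genes was not tested. Replicate arrays correlated at r = 0.998 over probes in both groups, and 78.9 to 83.2% of probes were well above background per array.

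The falls of the role groups were also compared across other ways of processing the arrays. The median of the licensing genes ran from -2.90 to -2.57 over 18 alternatives and that of the chromatin assembly genes from -2.85 to -2.53. Polymerase and primase genes ran from -1.87 to -1.29 and helicase activation genes from -2.36 to -1.61. In each role but chromatin assembly the smallest median fall was seen with normexp fitted on all spots, where the median of the whole set was -1.84.

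**Figure D5:**
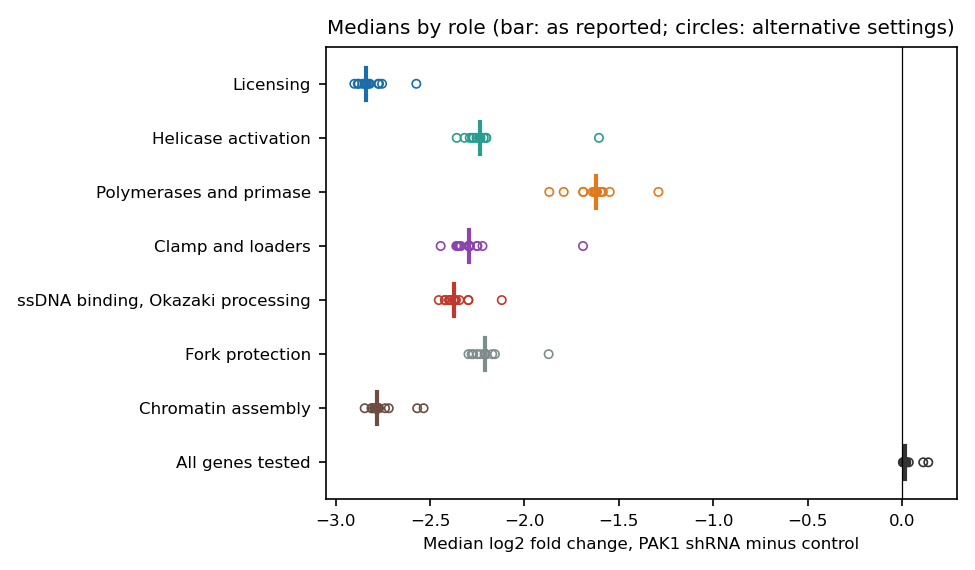
Median log2 fold change (PAK1 shRNA minus control) of the genes of each role and of all genes tested, with a bar for the processing used and a circle for each of 18 alternatives. The circles of licensing and chromatin assembly lie between -2.90 and -2.53, and those of all genes at or under 0.14.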

How the data were processed

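Agilent 1-colour arrays (Cy3) of 2 control and 2 PAK1 shRNA samples were analysed, with samples grouped by their labels, which name the cell line where the series text speaks of tumor cells. The authors deposited spot intensity values from Agilent Feature Extraction (version 9.5 per the labels, 9.5.3.1 in the file headers), not normalized between arrays. A second deposited source, the authors' log2 values per probe, served as an alternative and tracked log2 mean signals at r of 0.9996 to 0.9999 with column medians of 9.40 to 9.42, and its scaling is not given in the sources used here. Positions of probes are given on hg19, as the scanner files hold them, and promoters on GRCh38.p14 (RefSeq). Exon and UTR positions of probes were not analysed here.

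Background was corrected with normexp (offset 50) on mean minus background signals. The normexp fit left out spots with a flagged local background. On the control arrays, which had 8 and 18 spots with a background above 100, leaving out flagged spots moved the fit. The mean of the fitted background was -666 and -740 on all spots, and -9.19 and -12.1 without flagged ones. The part of the 8 and 18 spots alone was not tested. Non-control spots were quantile normalized, flagged spots were dropped (apart from the array values and sums of the cell type markers), and replicate spots were averaged. A probe entered if both arrays of either group read it well above background, and each gene was represented by its brightest probe on average. limma 3.58.1 (lmFit, eBayes) in R 4.3.3 was fitted over all 21990 genes, p-values being Benjamini-Hochberg adjusted and called under 0.05. For the comparison of probes it was fitted over the probes that entered, with p-values adjusted over those. A run on simulated data, drawn from limma's own variance model, checked the code and not how well that model suits these arrays. Fold changes are differences of normalized log2 intensity, PAK1 shRNA minus control. The number of arrays limits the precision.

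The 48 genes, the other lists, the motifs and the choice of the normexp fit were made with earlier results of these data known. Array values are given for PAK1, MCM2 to MCM7, CDC6, CDT1, GMNN, PCNA, the largest and smallest change of each role group and those of the 48 that rose or did not pass. Of the other replication genes, those that rose, those that did not pass and the 5 largest changes are named by this rule; the remaining ones, the array values of TOP2A and POLD4, the further probes and the markers were named after their values were seen. Alternatives changed the normexp fit, the signal used, the scaling, the filter on dim probes, the handling of flags and of several probes, the test (the unpaired test of the study's statistics section included), the threshold, the replicate block and, in turn, the arrays entered. All arrays share 1 slide, so no block for it was possible.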

Additional observations from a re-analysis of the deposited data

How the results depend on the processing

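Of 861 recomputed values of the 48 genes under 18 alternatives, 849 kept their direction and their side of the threshold. The number of members lower ranged from 44 (unpaired t-test, 46 testable) to 47, with 0 higher throughout. The median of the 48 genes was lowest in size with normexp fitted on all spots (-1.84) and otherwise -2.20 or beyond. The fold of 7 of the 48 genes (MCM10, GINS2, PRIM1, POLE, POLE2, DSCC1 and UHRF1) moved by over 1.5 times, each with normexp fitted on all spots. RFC1, at 0.01, turned to -0.067 with median centring and ran from -0.033 to 0.054 with 1 array left out. ORC2, at -0.01, turned to 0.0029 with cyclic loess and ran from -0.051 to 0.021 with 1 array left out, and ASF1A turned to 0.015 with median centring. None of these values passed the threshold. PRIM2 passed with median centring (-0.41), flagged spots kept, the mean over probes (-0.45) and the deposited log2 table (-0.44), among others. Over all genes, the unpaired t-test called 4553 lower and 4179 higher, and a threshold of at least 2-fold called 1999 lower and 1936 higher and left out PAK1 (-0.76). With 1 array left out PAK1 ran from -0.80 to -0.72. Scaling moved the median of all genes to 0.11 (processed signal at the 75th percentile) and 0.14 (median centring), and with median centring 6622 genes were lower and 8422 higher, against 7028 and 6721. The cause of these shifts was not tested.

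The labels number the replicates, but same-numbered arrays did not deviate together (r = 0.0077 over 26303 probes), so the numbers were not taken to pair samples. With the replicate number as a block, 47 of the 48 genes were lower, and 7123 genes were lower and 6923 higher in all.

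With 2 arrays a group, the intervals rest on the spread that limma shares across genes.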
